A study of Homo sapiens with 8 samples.

Results

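The genes described here encode the RB family of pocket proteins (RB1, RBL1, which encodes p107, and RBL2, which encodes p130), the 5 subunits of the MuvB core (LIN9, LIN37, LIN52, LIN54 and RBBP4) and the transcription factors MYBL2, also called B-MYB, and FOXM1. They were chosen by name, not by any measured value, and all 10 were found among the 38148 genes of the deposited expression table. HT29, a human colorectal cancer cell line with a BRAF V600E mutation, received either no drug or selumetinib at 1 μM over 24 h. Selumetinib inhibits MEK, the kinase that activates ERK1/2. Cells of all groups were fixed with glyoxal, permeabilised, stained for cyclin B1, the product of CCNB1, and sorted by flow cytometry before poly(A)-selected mRNA-seq, so that 4 groups of 2 libraries each resulted: CCNB1-negative and CCNB1-positive cells without drug (untreated), and the same fractions after selumetinib (treated).

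Pocket proteins repress genes of cell division while cells rest or are early in G1. RB1 binds activating E2F factors and is released from them when cyclin-dependent kinases phosphorylate it. RBL2 or RBL1 joins E2F4 or E2F5, a DP partner and the MuvB core to form the DREAM complex, which sits on E2F sites of G1/S genes and on cell cycle homology regions (CHR) of G2/M genes. When cells commit to division, MuvB leaves the pocket protein, binds MYBL2 in S phase and then recruits FOXM1, and in this form activates the G2/M genes.

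Titles and short descriptions of these libraries disagree. In all 8 the title gives the other treatment and the other fraction than the description does, and the groups used here follow the descriptions, which are also the column names of the table. Under the titles, each response to selumetinib given below would belong to the other fraction with its sign changed, each difference between fractions would belong to the other treatment with its sign changed, and the difference between the responses would stay the same. CCNB1 mRNA, a check on the sort, was higher in the CCNB1-positive fraction under the descriptions. The difference was 2.09 on the log2 scale in untreated cells and 5.08 in treated cells. As a check on the treatment, 15 genes that report MEK and ERK1/2 output were taken. Under the descriptions, 13 were lower after selumetinib in the CCNB1-negative and 12 in the CCNB1-positive fraction. Under the titles these would be higher after the drug. The depth was 12696860 to 23916160 reads on genes per library. The 3 shallowest were all from selumetinib-treated cells, namely both CCNB1-negative libraries and CCNB1-positive replicate 2. Of 10 colorectal epithelial markers, 9 reached 1 RPM (reads scaled to the library total) in every library, and CDX1 did not. Of 14 markers of blood, stromal, endothelial, erythroid and hepatic cells, 9 were under 1 RPM in every library, and LYZ, which encodes lysozyme, had 343 to 1081 RPM. The summed level of these 14 markers, most of it LYZ, was 915 to 1085 RPM in untreated and 347 to 717 RPM in treated libraries, and its part in the responses was not tested. Nothing in the labels says that the 2 libraries of a group came from separate cultures, so the p-values below measure the spread between these libraries, which may be technical.

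Promoter sequences are shown first because DREAM and MuvB act through short promoter elements, and several of the genes that encode their subunits carry such elements themselves. RefSeq promoter entries (GRCh38.p14) were found for 9 of the 10 genes, all but FOXM1. The entry of RB1 starts 172724 bases inside the gene and was not used. For the other 8, the 120 bases before the start were searched. The entry of LIN54 starts 2092 bases inside the gene, within the limit of 5000 bases set for use. Its window may therefore not be the main promoter of the gene. Capitals mark E2F-type words of 7 letters (TTNNCGN, where each N had to be C or G) and CHR-type words of 6 letters (TTTGAA and TTCGAA), searched on both strands. Each sequence reads from 5′ to 3′ on the strand of its gene and ends at the base before the start.
MYBL2 (chr20:43666994-43667113, plus strand): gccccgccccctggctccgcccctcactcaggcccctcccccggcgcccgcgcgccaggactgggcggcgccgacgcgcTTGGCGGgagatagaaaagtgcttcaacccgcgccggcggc
RBL1 (chr20:37095998-37096117, minus strand): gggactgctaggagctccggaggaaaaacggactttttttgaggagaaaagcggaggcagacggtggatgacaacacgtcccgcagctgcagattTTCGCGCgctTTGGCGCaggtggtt
LIN54 (chr4:83010835-83010954, minus strand): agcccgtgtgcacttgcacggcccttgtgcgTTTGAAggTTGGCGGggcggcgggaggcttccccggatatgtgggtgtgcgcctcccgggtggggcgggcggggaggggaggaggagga
RBBP4 (chr1:32651088-32651207, plus strand): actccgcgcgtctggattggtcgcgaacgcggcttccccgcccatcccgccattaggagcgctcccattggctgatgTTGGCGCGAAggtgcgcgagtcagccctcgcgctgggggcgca
LIN52 (chr14:74084836-74084955, plus strand): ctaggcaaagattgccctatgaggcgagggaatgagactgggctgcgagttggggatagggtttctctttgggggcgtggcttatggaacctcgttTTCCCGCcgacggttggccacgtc
RBL2 (chr16:53434351-53434470, plus strand): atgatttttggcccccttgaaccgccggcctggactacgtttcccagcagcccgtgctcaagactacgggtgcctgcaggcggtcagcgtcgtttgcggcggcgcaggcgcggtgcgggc

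MYBL2 held 1 E2F-type word, RBL1 held 2 separate ones, and RBBP4 held 2 that overlap on opposite strands. LIN54 held the CHR-type word TTTGAA followed after 2 bases by the E2F-type word TTGGCGG, and LIN52 held 1 E2F-type word, while the windows of RBL2, LIN9 and LIN37 held no word of either kind. Among all 35116 promoter entries, 11.4% held an E2F-type word in the same window, 6.11% a CHR-type word, 1.25% at least 2 E2F-type words and 0.390% both kinds. In the deposited table (GRCh38), the genes without a sequence above lie at 48303726 to 48599436 on chromosome 13 (RB1, plus strand), 226231149 to 226309869 on chromosome 1 (LIN9, minus strand), 35748361 to 35754519 on chromosome 19 (LIN37, plus strand) and 2857681 to 2877155 on chromosome 12 (FOXM1, minus strand). A match is a run of letters and was not tested for binding, and the words were chosen with the sequences known.

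Some of these genes were higher and some lower after selumetinib, as were large shares of all genes tested. The values below are log2 of reads per gene after the authors scaled each library to the largest one, and differences between groups are on the same log2 scale with standard errors (SE) from limma and p-values adjusted by Benjamini-Hochberg over the 14219 genes tested, those with a mean of at least 1 RPM. All 10 genes passed this filter. In a sorted bulk sample, fewer cells that express a gene and less RNA per cell cannot be told apart.

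In CCNB1-negative cells, 9 of the 10 genes differed between selumetinib and no treatment at adjusted p under 0.05 in limma. MYBL2, FOXM1, LIN9, RBL1, RBBP4 and LIN54 fell, 6 genes against 35.8% of all genes tested that were lower, and RBL2, LIN37 and LIN52 rose, 3 genes against 38.2% of all genes tested that were higher. In CCNB1-positive cells, 5 genes passed: MYBL2 and RBBP4 fell, against a background of 27.3% lower, and RBL2, LIN37 and LIN52 rose, against 38.0% higher. The median of the 10 differences was -0.80 in the CCNB1-negative and 0.17 in the CCNB1-positive fraction, beside medians over all genes tested of 0.05 and 0.17. The genes that rose were the same 3 in both fractions, where 3 of 10 did not exceed the share over all genes. Of the 6 genes that fell in CCNB1-negative cells, 5 had a promoter window and 4 of these held an E2F-type word. Of the 3 that rose 1 did, and the share over all promoter entries was 11.4%. The genes are few and the words were chosen with the sequences known, and a link between word and response was not tested.

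Between fractions of untreated cells, 1 of the 10 genes passed the test, FOXM1, which was higher in CCNB1-positive cells, where 1.36% of all genes tested were higher. None was lower at adjusted p under 0.05, where 1.51% of all genes were. In selumetinib-treated cells, FOXM1, MYBL2, LIN9, RBL1 and LIN54 were higher in CCNB1-positive cells, 5 of 10 against a background of 13.8%, and 0 were lower against 7.87%. The response differed between the fractions for 4 genes, FOXM1, MYBL2, LIN9 and RBL1, each with the higher value in CCNB1-positive cells, against 4.99% of all genes in that direction, and for 0 genes in the other direction, against 0.345%.

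**Figure D1:**
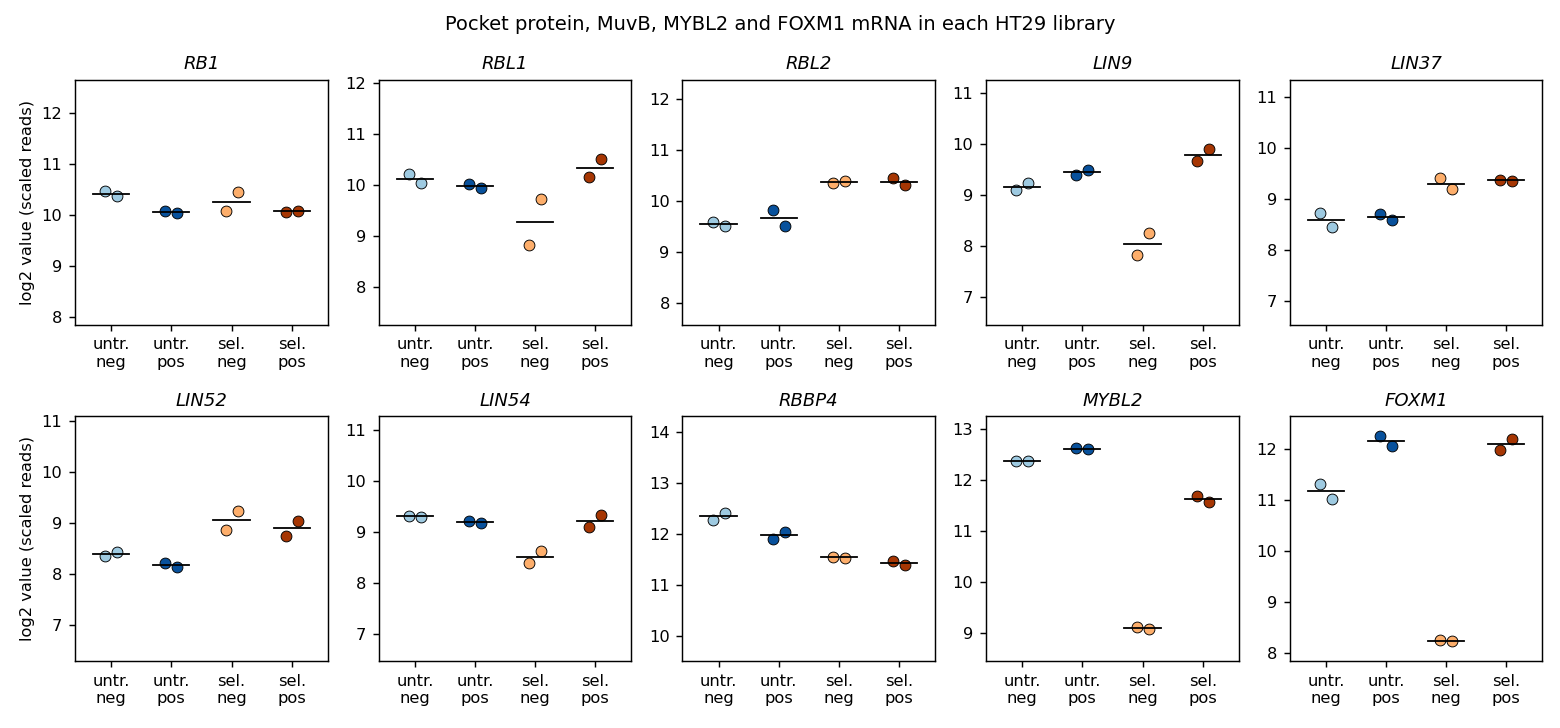
Each panel plots one gene, with the deposited log2 value (scaled reads) on the y axis and the 4 groups on the x axis (untr., untreated; sel., selumetinib; neg and pos, CCNB1-negative and CCNB1-positive); points are single libraries, lines are group means, and every y axis spans the same width. MYBL2 and FOXM1 drop furthest in selumetinib-treated CCNB1-negative cells, to 9.07 to 9.11 and 8.22 to 8.24, and the 2 points of RBL1 in that group lie far apart, at 8.82 and 9.72.

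MYBL2 and FOXM1, the activators that take over MuvB as cells divide, showed the largest responses of the 10 genes in CCNB1-negative cells. In CCNB1-negative cells MYBL2 stood at 12.38 and 12.37 without drug and at 9.11 and 9.07 after selumetinib. This was a fall by 3.28 (SE 0.13, adjusted p = 7.2e-10 in limma), or 9.71-fold, with replicates that agreed within 0.04 on the log2 scale. In CCNB1-positive cells MYBL2 stood at 12.62 and 12.61 without drug and at 11.69 and 11.57 with it, a fall by 0.99 (SE 0.13, adjusted p = 2.8e-05 in limma), or 1.99-fold. The drug-treated groups therefore did not overlap with the untreated ones in either fraction, and the treated CCNB1-positive libraries lay between the untreated ones and the treated CCNB1-negative ones. Between the fractions of untreated cells MYBL2 differed by 0.24 (95% interval -0.05 to 0.53, adjusted p = 0.49 in limma), whereas in treated cells it was 5.78-fold higher in the CCNB1-positive fraction (log2 difference 2.53, SE 0.13, adjusted p = 5.8e-09 in limma).

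FOXM1 stood at 11.31 and 11.02 in untreated CCNB1-negative libraries and at 8.24 and 8.22 in treated ones, a fall by 2.93 (SE 0.15, adjusted p = 3.6e-09 in limma), or 7.63-fold. In CCNB1-positive cells it stood at 12.24 and 12.05 without drug and at 11.98 and 12.19 with it. These 2 groups overlapped, and the difference of -0.06 had a 95% interval of -0.39 to 0.27 (adjusted p = 0.74 in limma). FOXM1 was 1.97-fold higher in CCNB1-positive than in CCNB1-negative untreated cells (log2 difference 0.98, SE 0.15, adjusted p = 0.0018 in limma) and 14.4-fold higher in treated cells (log2 difference 3.85, SE 0.15, adjusted p = 4.0e-10 in limma). MYBL2 and FOXM1 thus differed in the CCNB1-positive cells, where MYBL2 fell under the drug and FOXM1 did not pass the test, although this contrast between the 2 genes was not itself tested. Scaling by median of ratios gave FOXM1 a lower value in treated CCNB1-positive cells (-0.40, adjusted p = 0.033 in limma). Exons of FOXM1 overlap those of ITFG2 on the opposite strand, and ITFG2 moved the other way in CCNB1-negative cells (0.90, SE 0.15, adjusted p = 9.3e-05 in limma).

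**Figure D2:**
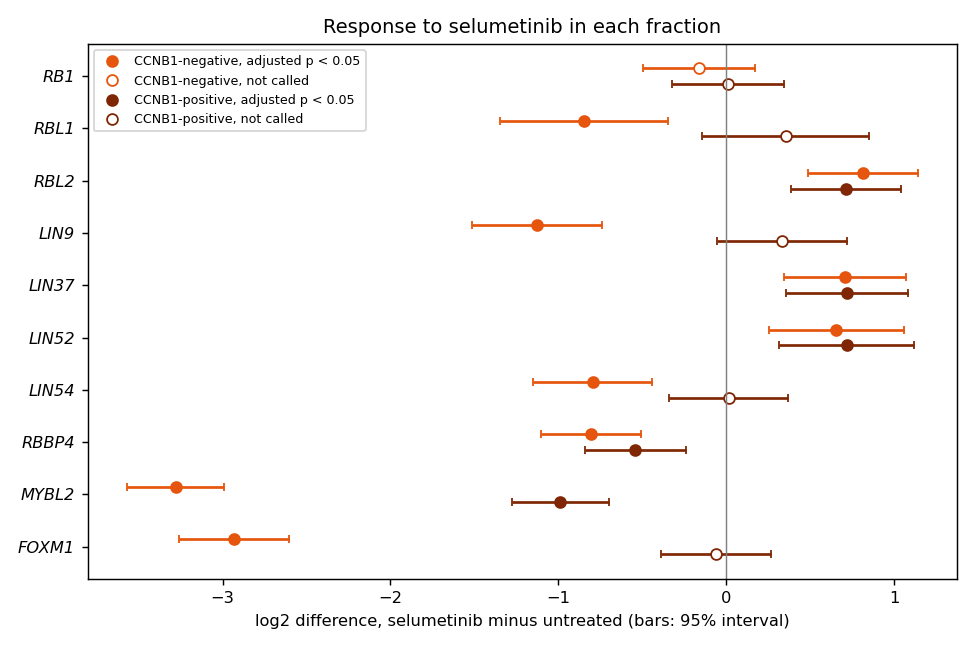
The log2 difference between selumetinib-treated and untreated cells (x axis) is plotted for each gene (y axis) in CCNB1-negative and CCNB1-positive cells, with 95% intervals as bars and filled points for adjusted p under 0.05. MYBL2 and FOXM1 lie at -3.28 and -2.93 in CCNB1-negative cells, and RBL2, LIN37 and LIN52 lie between 0.66 and 0.81 in both fractions.

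Of the 3 pocket protein genes, RBL2 rose in both fractions, RBL1 fell in CCNB1-negative cells and RB1 did not pass the test in either. RBL2, whose product p130 is the pocket protein of resting cells, stood at 9.59 and 9.51 in untreated CCNB1-negative libraries and at 10.34 and 10.38 in treated ones. In CCNB1-positive cells it went from 9.81 and 9.51 to 10.44 and 10.31. All 4 treated libraries were above all 4 untreated ones, with rises of 0.81 (SE 0.15, adjusted p = 2.5e-04 in limma) and 0.71 (SE 0.15, adjusted p = 0.001 in limma), or 1.76-fold and 1.64-fold. RBL2 did not pass the test between fractions, with differences of 0.11 (95% interval -0.22 to 0.44) without drug and 0.01 (-0.32 to 0.34) with it. Exons of RBL2 overlap those of AKTIP on the opposite strand. AKTIP moved the other way in CCNB1-negative cells (-0.69, SE 0.22, adjusted p = 0.0099 in limma) and was at -0.06 (adjusted p = 0.81 in limma) in CCNB1-positive cells.

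RBL1, whose product p107 is itself made mainly in dividing cells, moved the other way in CCNB1-negative cells. It stood at 10.21 and 10.02 in the untreated libraries and at 8.82 and 9.72 in the treated ones, a fall by 0.85 (SE 0.23, adjusted p = 0.0045 in limma). The 2 treated libraries differed from each other by 0.90, more than for any other of the 10 genes in any group. Without selumetinib-treated CCNB1-negative replicate 1 the difference was -0.40 and did not pass the test (adjusted p = 0.064 in limma), nor did it under scaling to nuclear genes without MALAT1 (-0.53, adjusted p = 0.063 in limma). In CCNB1-positive cells RBL1 stood at 10.01 and 9.93 without drug and at 10.16 and 10.49 with it, a difference of 0.35 (95% interval -0.14 to 0.85, adjusted p = 0.19 in limma). It was called higher there under scaling to nuclear genes without MALAT1 (0.61, adjusted p = 0.042 in limma), in a fit of only the 2 groups compared (0.35, adjusted p = 0.042 in limma) and without selumetinib-treated CCNB1-negative replicate 1 (0.35, adjusted p = 0.049 in limma). RBL1 was 2.08-fold higher in CCNB1-positive than in CCNB1-negative treated cells (log2 difference 1.06, SE 0.23, adjusted p = 0.0061 in limma), and this call was lost without selumetinib-treated CCNB1-positive replicate 2 (0.89, adjusted p = 0.055 in limma).

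RB1, the founding member of the family, stood between 10.04 and 10.46 in all 8 libraries and was not called in any of the 5 comparisons as fitted here. Its response was -0.16 (95% interval -0.49 to 0.17) in the CCNB1-negative and 0.01 (-0.32 to 0.34) in the CCNB1-positive fraction, and treated and untreated libraries overlapped in both fractions. The difference between fractions of untreated cells was -0.36 (SE 0.15, adjusted p = 0.32 in limma), with both CCNB1-positive libraries below both CCNB1-negative ones.

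The 5 MuvB genes did not all move in 1 direction, and rises and falls were each common among all genes tested. LIN37 and LIN52 (LIN52 in its phosphorylated form binds the pocket protein) rose in both fractions. LIN9, LIN54 and RBBP4 fell in CCNB1-negative cells. LIN52 stood at 8.34 and 8.44 in untreated CCNB1-negative libraries and at 8.86 and 9.23 in treated ones, and at 8.21 and 8.14 against 8.74 and 9.04 in CCNB1-positive cells. These rises were 0.66 (SE 0.19, adjusted p = 0.0059 in limma) and 0.72 (SE 0.19, adjusted p = 0.0042 in limma), and the groups did not overlap. LIN37 stood at 8.73 and 8.46 against 9.41 and 9.19 in the CCNB1-negative fraction and at 8.71 and 8.59 against 9.37 and 9.36 in the other, with rises of 0.71 (SE 0.17, adjusted p = 0.0018 in limma) and 0.72 (SE 0.17, adjusted p = 0.0021 in limma).

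The rises of LIN37 and LIN52 were not called under every scaling of the libraries. Under median of ratios, which put the median over all genes at -0.21 and -0.18 in the CCNB1-negative and CCNB1-positive fractions in place of 0.05 and 0.17, LIN52 was at 0.40 and 0.37 (adjusted p = 0.068 and 0.094 in limma) and LIN37 in CCNB1-positive cells at 0.38 (adjusted p = 0.062 in limma), still above 0. LIN52 also lost its call in CCNB1-negative cells without selumetinib-treated CCNB1-negative replicate 2 (0.47, adjusted p = 0.058 in limma) and in CCNB1-positive cells without selumetinib-treated CCNB1-positive replicate 2 (0.56, adjusted p = 0.058 in limma) or under quantile normalization (0.39, adjusted p = 0.11 in limma). Exons of LIN37 overlap those of AD000671.1, a protein-coding gene on the same strand that stood at 10.7 to 11.3 in the 8 libraries, so that reads of the shared exons could be given to either, and LIN37 is uncertain to that extent. AD000671.1 did not pass the test in either fraction, at -0.30 (adjusted p = 0.081 in limma) and 0.16 (adjusted p = 0.36 in limma).

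LIN9, the scaffold of MuvB that also contacts MYBL2, showed the largest change of the core. It stood at 9.10 and 9.23 in untreated CCNB1-negative libraries and at 7.82 and 8.26 in treated ones, a fall by 1.13 (SE 0.18, adjusted p = 6.7e-05 in limma), or 2.18-fold. In CCNB1-positive cells it stood at 9.40 and 9.50 against 9.67 and 9.90, a difference of 0.33 (95% interval -0.06 to 0.72, adjusted p = 0.12 in limma). The treated CCNB1-positive libraries were thus the highest of all 8 and the treated CCNB1-negative ones the lowest. Between these groups LIN9 differed 3.34-fold (log2 difference 1.74, SE 0.18, adjusted p = 9.7e-06 in limma), and between the fractions of untreated cells by 0.28 (95% interval -0.11 to 0.67, adjusted p = 0.58 in limma).

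LIN54, the subunit that binds the CHR element, stood at 9.31 and 9.30 in untreated CCNB1-negative libraries and at 8.39 and 8.63 in treated ones, a fall by 0.79 (SE 0.16, adjusted p = 5.9e-04 in limma). In CCNB1-positive cells it stood at 9.21 and 9.18 without drug and at 9.09 and 9.33 with it, with overlapping groups and a difference of 0.01 (95% interval -0.34 to 0.37). In treated cells it was 1.62-fold higher in the CCNB1-positive fraction (log2 difference 0.70, SE 0.16, adjusted p = 0.0095 in limma), a call that was lost without selumetinib-treated CCNB1-positive replicate 2 (0.58, adjusted p = 0.093 in limma).

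RBBP4, a histone-binding protein shared by MuvB and several chromatin complexes, fell in both fractions. It stood at 12.29 and 12.43 against 11.56 and 11.54 in CCNB1-negative cells, a fall by 0.81 (SE 0.14, adjusted p = 1.3e-04 in limma). In CCNB1-positive cells it stood at 11.92 and 12.04 against 11.48 and 11.39, a fall by 0.54 (SE 0.14, adjusted p = 0.0038 in limma). All 4 treated libraries were below all 4 untreated ones. The fall in CCNB1-positive cells was not called under quantile normalization (-0.28, adjusted p = 0.076 in limma), under scaling to nuclear genes without MALAT1 (-0.29, adjusted p = 0.07 in limma) or without untreated CCNB1-positive replicate 2 (-0.48, adjusted p = 0.054 in limma).

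**Figure D3:**
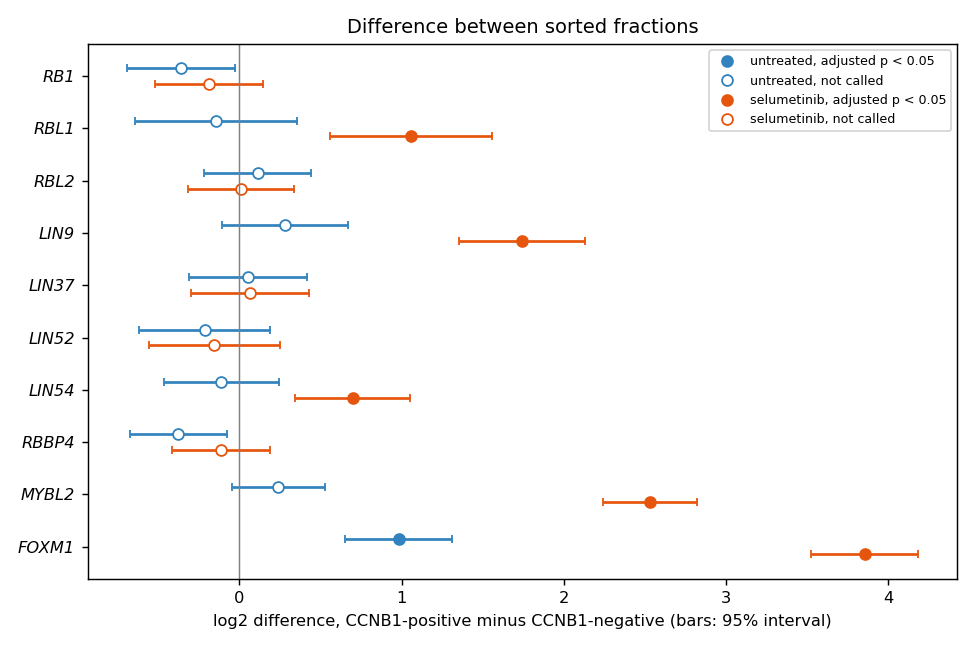
The log2 difference between CCNB1-positive and CCNB1-negative cells (x axis) is plotted for each gene (y axis) in untreated and in selumetinib-treated cells, with 95% intervals as bars and filled points for adjusted p under 0.05. In untreated cells FOXM1 alone is filled, at 0.98, and in treated cells FOXM1, MYBL2, LIN9, RBL1 and LIN54 are filled, between 0.70 and 3.85.

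The difference between the responses was tested directly as an interaction. It was 2.87 (SE 0.22, adjusted p = 4.1e-06 in limma) for FOXM1, 2.29 (SE 0.19, adjusted p = 4.9e-06 in limma) for MYBL2, 1.46 (SE 0.26, adjusted p = 0.0027 in limma) for LIN9 and 1.20 (SE 0.33, adjusted p = 0.049 in limma) for RBL1, each given as the response in CCNB1-positive cells minus that in CCNB1-negative cells. The first 3 were called under all 18 alternatives of the processing, whereas RBL1 was called under 5 of 18. LIN54 stood just outside the threshold, at 0.81 (SE 0.23, adjusted p = 0.064 in limma). For RBL2, LIN37 and LIN52 the 2 responses differed by -0.10 (95% interval -0.56 to 0.36), 0.01 (-0.50 to 0.53) and 0.06 (-0.51 to 0.63), so that for none of these genes was a difference shown. For RB1 the difference was 0.17 (-0.30 to 0.64), and for RBBP4 it was 0.26 (-0.16 to 0.69).

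Levels of different genes were compared as RPKM (RPM per kilobase of exon). MYBL2 was the most abundant of the 10 mRNAs in untreated cells, with 79.9 ± 1.18 RPKM (SD, n = 2) in the CCNB1-negative and 94.0 ± 1.04 RPKM in the CCNB1-positive fraction. RBBP4 (23.2 ± 1.40 RPKM) and FOXM1 (19.6 ± 2.96 RPKM) followed in CCNB1-negative cells, in the other order in CCNB1-positive cells (17.8 ± 0.990 and 38.4 ± 3.76 RPKM), and the ranges of the 2 genes did not overlap in either. With the longest transcript in place of all exons, their ranges did overlap in untreated CCNB1-negative cells. RBBP4 was then at 26.6 to 29.0 RPKM and FOXM1 at 24.2 to 30.0 RPKM. RB1, RBL1, LIN37 and LIN9 were at 5.41 to 8.92 RPKM in untreated cells, and RBL2, LIN54 and LIN52 at 3.17 to 4.18 RPKM. In untreated CCNB1-negative cells the range of RBL2 overlapped those of LIN54 and LIN52, so its place there is not resolved.

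In selumetinib-treated CCNB1-negative cells the order was another one. RBBP4 was first, with 14.6 ± 0.0961 RPKM (SD, n = 2), LIN37 second, with 10.3 ± 0.985 RPKM, and then came MYBL2, with 9.06 ± 0.0487 RPKM, in a range it shared with RB1 (8.86 ± 1.75 RPKM). RBL2 had 7.48 ± 0.250 RPKM, LIN52 6.47 ± 1.25 RPKM and RBL1 5.01 ± 2.19 RPKM. FOXM1 (2.81 ± 0.00914 RPKM), LIN9 (2.76 ± 0.630 RPKM) and LIN54 (2.49 ± 0.319 RPKM) came last, with a range of LIN9 that overlapped those of both others, while FOXM1 lay above LIN54. In treated CCNB1-positive cells MYBL2 (50.9 ± 2.58 RPKM) and FOXM1 (39.6 ± 4.33 RPKM) were again first and second, and LIN9 had 8.90 ± 1.08 RPKM. The order of the levels depends on the length given to each gene. With the longest transcript in place of all exons, LIN37 (17.8 RPKM) was above RBBP4 (17.5 RPKM) in treated CCNB1-negative cells, where MYBL2 (9.30 RPKM) came after RB1 and RBL2 (9.58 RPKM), and FOXM1 (54.9 RPKM) was above MYBL2 (52.3 RPKM) in treated CCNB1-positive cells.

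Ratios of 2 genes within a library do not depend on how libraries are scaled. The log2 ratio of RBL2 to RBL1 was -1.01 ± 0.07 (SD, n = 2) in untreated CCNB1-negative cells, -0.76 ± 0.16 in untreated CCNB1-positive cells, 0.65 ± 0.61 in treated CCNB1-negative cells and -0.40 ± 0.33 in treated CCNB1-positive cells. RBL2 was thus above RBL1 in both libraries of treated CCNB1-negative cells and below it in the other 6. The log2 ratio of MYBL2 to RBL2 was 4.37 ± 0.05 and 4.50 ± 0.21 in untreated CCNB1-negative and CCNB1-positive cells, 0.28 ± 0.06 in treated CCNB1-negative cells and 2.80 ± 0.01 in treated CCNB1-positive cells. The log2 ratio of FOXM1 to RBL2 was 2.34 ± 0.14 and 3.20 ± 0.08 without drug, and -1.41 ± 0.04 and 2.43 ± 0.24 with it, so that FOXM1 was below RBL2 only in the 2 libraries of treated CCNB1-negative cells. With 2 libraries against 2, no exact permutation test can reach p under 0.05, and these ratios were not tested. They depend on the length given to each gene, and with the longest transcript in place of all exons the ratio of MYBL2 to RBL2 in treated CCNB1-negative cells was -0.043, and that of RBL2 to RBL1 in selumetinib-treated CCNB1-positive replicate 1 turned from -0.17 to 0.13.

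**Figure D4:**
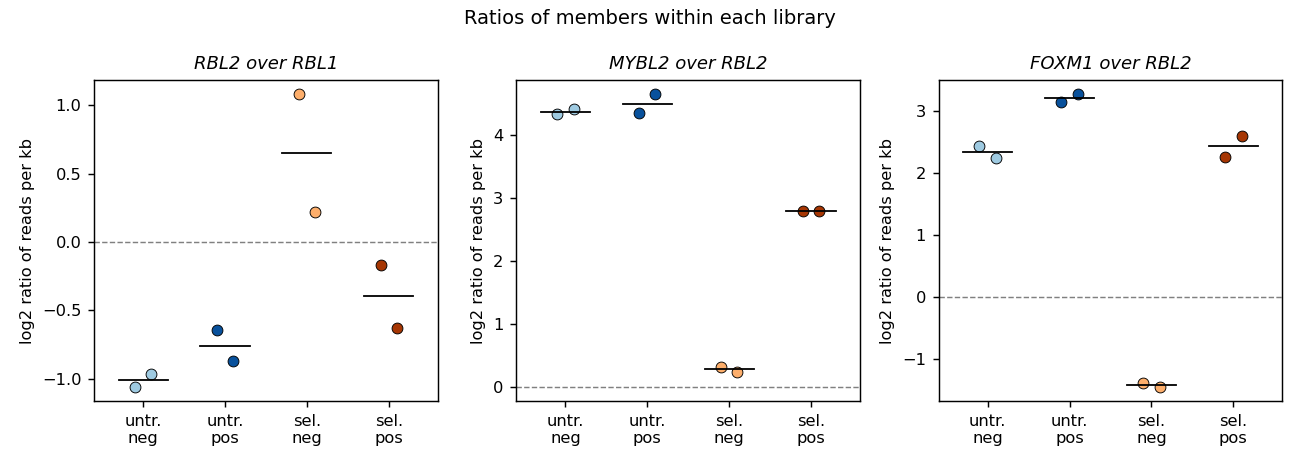
Log2 ratios of reads per kilobase within each library (y axis) are plotted for RBL2 over RBL1, MYBL2 over RBL2 and FOXM1 over RBL2 in the 4 groups (x axis), with points for libraries and lines for group means; the dashed line marks equal levels and the y axes differ in range. RBL2 exceeds RBL1 and FOXM1 falls below RBL2 in treated CCNB1-negative cells, at group means of 0.65 and -1.41.

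The remaining partners of the DREAM and MYB-MuvB complexes were taken as a list of 8 genes. In CCNB1-negative cells 2 were higher after selumetinib, 4 were lower and 2 did not pass the test, with a median of -0.59, against shares of 38.2% higher and 35.8% lower over all genes tested. In the CCNB1-positive fraction 3 were higher and 4 lower, with a median of -0.53, against 38.0% higher and 27.3% lower among all genes tested. E2F4, the repressor E2F of DREAM, fell by 1.36 (SE 0.16, adjusted p = 3.3e-06 in limma) and by 1.13 (SE 0.16, adjusted p = 3.5e-05 in limma) in the CCNB1-negative and CCNB1-positive fractions. E2F5, the other repressor E2F, fell by 1.23 (SE 0.21, adjusted p = 1.6e-04 in limma) in CCNB1-positive cells and was at -0.39 (adjusted p = 0.1 in limma) in CCNB1-negative cells. The DP partners went opposite ways: TFDP1 stood at 12.12 and 12.26 against 10.14 and 9.94 in CCNB1-negative cells, a fall by 2.14 (SE 0.14, adjusted p = 2.0e-08 in limma), while TFDP2 stood at 9.37 and 9.17 against 11.74 and 12.29, a rise of 2.75 (SE 0.18, adjusted p = 1.6e-08 in limma).

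The same opposite movement of the DP genes was found in CCNB1-positive cells, with TFDP1 at -1.48 (SE 0.14, adjusted p = 1.6e-06 in limma) and TFDP2 at 2.23 (SE 0.18, adjusted p = 4.0e-07 in limma). DYRK1A, the kinase that phosphorylates LIN52, rose by 0.58 (SE 0.15, adjusted p = 0.0026 in limma) and 0.65 (SE 0.15, adjusted p = 0.0014 in limma), beside the rises of LIN52 itself. RBBP7, the close relative of RBBP4, fell by 1.90 (SE 0.17, adjusted p = 3.0e-07 in limma) and by 0.81 (SE 0.17, adjusted p = 9.0e-04 in limma) in the same order of fractions, and its responses differed (1.09, SE 0.24, adjusted p = 0.015 in limma). MYB, a relative of MYBL2, fell by 0.48 (SE 0.15, adjusted p = 0.011 in limma) in CCNB1-negative cells and was at -0.24 (adjusted p = 0.18 in limma) in CCNB1-positive cells. MYBL1, a further relative with log2 values of 4.90 to 6.51 and only 19 and 18 reads in treated CCNB1-negative libraries, was at -0.70 (adjusted p = 0.076 in limma) and rose by 0.85 (SE 0.34, adjusted p = 0.04 in limma) in the 2 fractions.

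Upstream of the pocket proteins stand the cyclins, kinases and inhibitors that control their phosphorylation, a list of 17 genes of which 16 were tested. After selumetinib 10 were lower and 2 higher in the CCNB1-negative fraction, with 6 lower and 3 higher in the CCNB1-positive one, against the same shares of all genes tested as for the partners above. The largest falls in CCNB1-negative cells were those of CDK1 (-4.17, SE 0.24, adjusted p = 7.9e-09 in limma) and CCNA2, which encodes cyclin A2 (-3.78, SE 0.17, adjusted p = 1.5e-09 in limma). The 2 rises were those of the inhibitor genes CDKN1C, which encodes p57 (2.73, SE 0.34, adjusted p = 6.2e-06 in limma), and CDKN2B, which encodes p15 (0.97, SE 0.27, adjusted p = 0.0047 in limma).

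Downstream stand the target genes. A list of 31 G2/M genes, typical targets of MuvB with MYBL2 and FOXM1, fell as a whole in CCNB1-negative cells. There 31 of 31 fell (median -3.32, range -4.27 to -1.15), against 35.8% of all genes tested. The CCNB1-positive fraction had 25 falls and 1 rise on this list (median -0.65). Among all genes tested, 27.3% fell and 38.0% rose in that fraction. The largest falls in CCNB1-negative cells were those of CCNB1 (-4.27, SE 0.21, adjusted p = 2.2e-09 in limma) and CDK1, and the smallest those of CDC25C (-1.41, SE 0.18, adjusted p = 6.5e-06 in limma) and CENPA (-1.15, SE 0.15, adjusted p = 1.2e-05 in limma). CDC25C, the phosphatase that activates CDK1, was the gene of this list that rose in CCNB1-positive cells (0.78, SE 0.18, adjusted p = 0.0015 in limma). The sort itself was made on the product of CCNB1. Of all genes tested, 13.8% were higher in CCNB1-positive cells with drug and 1.36% without. All 31 genes of the list were higher there with and without drug, with medians of 4.53 and 1.83. FOXM1 shared this pattern, and MYBL2 did not pass the test between fractions of untreated cells.

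Of 30 G1/S genes, typical E2F and DREAM targets, 29 fell in the CCNB1-negative fraction (median -3.39), against 35.8% of all genes tested. In the CCNB1-positive one 26 fell and 2 rose (median -1.02), against 27.3% lower over all genes. CDC6 (-4.46, SE 0.16, adjusted p = 7.2e-10 in limma) and CDC25A (-4.17, SE 0.22, adjusted p = 4.6e-09 in limma) fell most in CCNB1-negative cells, and E2F3 fell least (-0.79, SE 0.15, adjusted p = 3.4e-04 in limma). Between fractions of untreated cells 18 of these genes were lower in CCNB1-positive cells and 0 higher, against 1.51% of all genes lower. In treated cells 22 were higher and 0 lower, against 13.8% of all genes higher. A list of 15 genes that report MEK and ERK1/2 output had 13 lower and 2 higher after selumetinib in the CCNB1-negative fraction (median -1.54). It had 12 lower and 1 higher in the CCNB1-positive one (median -1.33), against the same shares of all genes lower as for the responses of the G1/S genes.

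**Figure D5:**
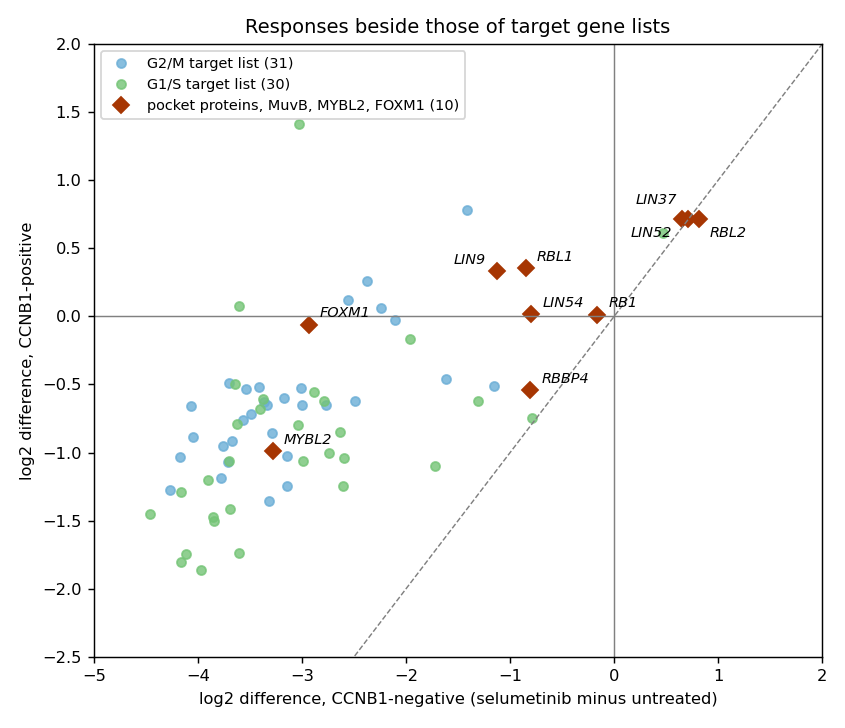
The log2 response to selumetinib in CCNB1-negative cells (x axis) is plotted against that in CCNB1-positive cells (y axis) for the 10 genes (diamonds) and for the G2/M and G1/S target lists (circles); the dashed line marks equal responses. MYBL2 (-3.28 and -0.99) lies among the target genes, FOXM1 (-2.93 and -0.06) above most of them, and RBL2, LIN37 and LIN52 lie near the line at the upper right.

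The genes most like 5 of the 10 were sought by Pearson's r of the log2 values over the 8 libraries, among 12308 genes, as a description over libraries that share groups and depth. Nearest to MYBL2 were RNASEH2A, THSD8 and NCAPG2 (r of 0.997 each). RNASEH2A and THSD8 overlap on chromosome 19 (12806556 to 12815201 and 12802031 to 12813581) with almost the same values in every library, so they may hold the same reads. RNASEH2A, a subunit of the nuclease that removes ribonucleotides from DNA, had responses of -2.63 and -0.64, and NCAPG2, a condensin subunit, of -2.89 and -0.75, in CCNB1-negative and CCNB1-positive cells, beside -3.28 and -0.99 for MYBL2. Nearest to FOXM1 were SMC4 and KIF22 (r of 0.998 and 0.997), a condensin subunit and a chromosome-binding kinesin, and NUF2, a kinetochore protein (r of 0.997). SMC4, KIF22 and NUF2 had responses of -2.03, -2.49 and -3.56 in CCNB1-negative cells, beside -2.93 for FOXM1. In CCNB1-positive cells they were at 0.04, -0.30 and -0.22, beside -0.06 for FOXM1. All nearest genes were picked by r over these same libraries, so like responses follow from the choice and are no separate evidence.

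Nearest to RBL2 were HOXC9, ADCK5 and CROCC (r of 0.998, 0.994 and 0.994), which rose in both fractions by more than RBL2 did, with responses of 2.09 and 1.75, 1.43 and 1.30, and 1.57 and 1.37. Nearest to RBL1 were SNRNP48, PBX3 and RAD54B (r of 0.940, 0.938 and 0.932), of which RAD54B, a recombination factor, was at -0.81 and 0.48 in the 2 fractions. Nearest to RB1 were RAD51D, NIPA1 and TIMM29 (r of 0.980, 0.977 and 0.948), none of which passed a test in any comparison. Under Euclidean distance the 3 nearest genes kept 2 of these for RB1, 2 for RBL1, 0 for RBL2, 1 for MYBL2 and 0 for FOXM1.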

How the data were processed

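HT29 mRNA-seq of 8 libraries in 4 groups was used. Per the labels and the study's methods, the authors used Trim Galore 0.5.0 for trimming, HISAT2 2.1.0 for mapping to GRCh38 and SeqMonk for quantifying genes, with libraries made by a directional kit. The annotation release and the strand setting of the counting are not given in the sources used here. The authors deposited log2 values of reads per gene, scaled to the largest library, and genes without reads stand at the log2 of 0.9 reads plus a constant of the library. 2 raised to each value, after removal of that constant, gave whole reads (within 0.01) for at least 99.8% of values with reads. All 8 value columns were used. Replicates differed by more than sampling noise (chi-square per gene 15.6 to 30.2) and were kept separate. The labels and the methods name different growth media.

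Deposited log2 values were fitted with limma 3.58.1 (mean-variance trend, R 4.3.3) with 1 coefficient per group over all 8 libraries, for genes whose mean reached 1 RPM, and p-values were adjusted by Benjamini-Hochberg. The fit was also run on simulated data with the same dispersion for every gene and independent libraries. That setting differs from these libraries, so it does not vouch for the calls given here. The authors' own test was DESeq2 within SeqMonk. As a model of counts it does not suit the deposited log2 values and was not used here. Exon lengths and overlaps came from GENCODE release 44. RBBP4 has 7 annotated pseudogenes, none of which is in the table, so reads shared with them cannot be judged. The other steps used Python 3.11.15, pandas 2.3.3, numpy 2.4.6 and matplotlib 3.10.9.

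The genes described, the lists and the tests were chosen with earlier results of these data known. Named are the 10 genes, the 8 partners and CCNB1. Of the kinase, G2/M and G1/S lists, the 2 genes with the largest rise (or smallest fall) and the 2 with the largest fall in CCNB1-negative cells are named. The values of 1 gene this rule names are not reported here. For RB1, RBL1, RBL2, MYBL2 and FOXM1, the 3 most alike genes are named. Genes that share exons with one of the 10 are named where that touches a value. The lists share genes, such as CDK1 and CCNA2. Alternatives were an adjusted p of 0.01, a 2-fold requirement, no filter or one of 10 RPM, quantile normalization, median of ratios, scaling to nuclear genes without MALAT1, pseudocounts of 0.1 and 1 RPM, limma-voom on the recovered reads, only the groups compared, replicate blocks and leaving out each library.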

Additional observations from a re-analysis of the deposited data

Results flagged for a closer look

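For 4 of the 10 genes the response to selumetinib differed between the sorted fractions by the interaction in limma, which is what singled them out. The response in CCNB1-positive cells minus that in CCNB1-negative cells was 1.20 for RBL1, 1.46 for LIN9, 2.29 for MYBL2 and 2.87 for FOXM1 on the log2 scale. The value of RBL1 ranged from 0.75 to 1.65 when single libraries were left out, and its 2 libraries of treated CCNB1-negative cells differed by 0.90. CCNB1 itself, whose product defined the fractions, had a difference of responses of 2.99 (SE 0.30, adjusted p = 1.8e-05 in limma). The part of the sort in these differences was not tested.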

How the results depend on the processing

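No called difference of the 10 genes changed its sign under any alternative (24 differences), whereas 16 of 26 that were not called did so under at least 1. Of the 9 genes called in CCNB1-negative cells 3 remained with a 2-fold requirement, of the 5 called in CCNB1-positive cells 0 remained with it and 3 under quantile normalization, and FOXM1, called between fractions of untreated cells, was lost (0 called) with it. In these counts the alternative's own construction set the result for the 2-fold requirement, and for quantile normalization the cause was not tested. Leaving out single libraries gave 8 to 9, 4 to 6, 1 to 1, 3 to 5 and 3 to 4 called genes in the 5 comparisons in the order given, with the lowest count between treated fractions without selumetinib-treated CCNB1-positive replicate 2. The ratio of MYBL2 to RBL2 in treated CCNB1-negative cells turned to -0.043 with the longest transcript.

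The replicate numbers are not shown to pair libraries. Deviations from group means correlated by 0.35 and 0.43 between the fractions of untreated and of treated cells of equal number, and by -0.02 between treatments in either fraction. With the replicate number as a block, LIN54 was called in the difference of responses (0.81, adjusted p = 0.044 in limma), and with each culture as a replicate block 3 genes were called between untreated fractions, with RB1 (-0.36, adjusted p = 0.031) and RBBP4 (-0.38, adjusted p = 0.0097) added to FOXM1. LIN9 in CCNB1-positive cells was called as higher under scaling to nuclear genes (0.58), both pseudocounts and limma-voom, and RB1 in CCNB1-negative cells as lower under median of ratios (-0.42). Few reads lie behind the values of MYBL1 after treatment in CCNB1-negative cells (18 and 19). The 2 libraries per group limit every difference smaller than about the intervals given.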
